A study of Homo sapiens with 10 samples.

Results

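AFF3, ZNF385B and SERINC3 are 3 protein-coding genes whose promoters carried much less H3K27ac and H3K18ac enrichment in C4-2BER cells than in C4-2B cells. They were selected on the promoter values of the 4 peak lists themselves. Of 20033 protein-coding genes, 14241 had promoter peaks in all 4 lists, and these 3 had the largest falls in both marks when genes were ordered by the smaller of their 2 falls. Their promoter ratios, and every other ratio between the same 2 cell lines, are therefore a description with no test. C4-2B is a human prostate adenocarcinoma line that grows without androgen, and C4-2BER is a neuroendocrine-like line obtained from it by continuous exposure to the antiandrogen drug enzalutamide, in which it is also grown. C4-2BER is 1 derived line, so the comparison is between 2 lines and not between 2 states. Each mark was profiled by ChIP-Seq in 2 libraries per cell line, with 1 input library per cell line. The libraries of a group were merged before peaks were called, which leaves 1 list per mark and cell line and no replicate error. The depth of the libraries is unknown from these lists.

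The lists held 68034 H3K27ac peaks in C4-2B and 72971 in C4-2BER, and 198451 and 197948 H3K18ac peaks. Of these, 451 lay over the bodies of the 3 genes and 100 kb to each side. For each peak the lists give a fold enrichment, the mean of the ChIP signal over the local background along the whole peak. A promoter or region was called decreased when the ratio of C4-2BER to C4-2B was 0.5 or less, or when its peak was found in C4-2B alone, and increased in the mirrored case.

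Acetylated lysines 27 and 18 of histone H3 mark nucleosomes at active promoters and enhancers, and these acetyl groups are placed mainly by the p300 and CBP enzymes. AFF3 belongs to the AF4/FMR2 family, whose proteins act as scaffolds of super elongation complexes that release paused RNA polymerase. ZNF385B is a zinc finger protein that has been linked to p53-dependent apoptosis. SERINC3 is a membrane protein with many membrane-spanning segments, best known for lowering the infectivity of retroviruses that incorporate it. The luminal prostate genes KLK3, KLK2, TMPRSS2, FOXA1 and HOXB13 all had an H3K27ac promoter peak in both cell lines, and 0 of them were called changed in either mark, where 10.8% of all promoters with an H3K27ac peak were called decreased and 5.9% of those with H3K18ac. Their H3K27ac folds were all lower in C4-2BER, from 28.97 to 15.001 at the forkhead factor FOXA1 (log2 ratio −0.95), 20.3 to 13.8 at KLK3, which encodes prostate-specific antigen (−0.56), and 21.5 to 20.03 at the serine protease TMPRSS2 (−0.10). Of the neuroendocrine markers, CHGA, NCAM1 and INSM1 had no H3K27ac promoter peak in either list. ENO2, a neuronal enolase, was called increased, from 4.00 to 14.3, with a peak of 1947 bp in C4-2B and 26021 bp in C4-2BER. SYP, a synaptic vesicle protein, went from 8.16 to 5.67. Of 15346 promoters with an H3K27ac peak, 700 were called increased. These markers all had an H3K18ac promoter peak in both lines and none was called changed in that mark, with 4.06 and 4.33 at ENO2. For H3K18ac, 384 of 17828 promoters were called increased. Luminal promoter acetylation was thus present in both lines, and the neuroendocrine promoters differed among themselves in H3K27ac.

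The promoters under the peaks differ in base composition. The 300 bases around the RefSeq start site that fell under the acetylated peak are shown for each gene, 5′ to 3′ on the minus strand of GRCh38, together with the start of the canonical AFF3 transcript, which carried no peak. The internal AFF3 stretch lay under the C4-2B peaks and the C4-2BER H3K18ac peak. It lay outside the C4-2BER H3K27ac peak, which ended at 100105384. Capitals mark matches to the motifs searched on both strands.
AFF3 internal promoter, chr2:100105534-100105833: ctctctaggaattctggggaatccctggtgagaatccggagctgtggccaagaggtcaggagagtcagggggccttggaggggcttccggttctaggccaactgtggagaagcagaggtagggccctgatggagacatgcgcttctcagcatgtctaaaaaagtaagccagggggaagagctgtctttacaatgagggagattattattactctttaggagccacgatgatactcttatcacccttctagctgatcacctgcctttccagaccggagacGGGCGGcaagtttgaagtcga
AFF3 canonical promoter, chr2:100142541-100142840: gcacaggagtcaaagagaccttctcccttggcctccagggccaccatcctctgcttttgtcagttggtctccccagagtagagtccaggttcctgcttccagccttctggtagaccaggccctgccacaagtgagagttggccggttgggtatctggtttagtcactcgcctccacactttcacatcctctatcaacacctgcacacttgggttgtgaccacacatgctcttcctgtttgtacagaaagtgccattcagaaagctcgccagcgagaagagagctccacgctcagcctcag
ZNF385B promoter, chr2:179861563-179861862: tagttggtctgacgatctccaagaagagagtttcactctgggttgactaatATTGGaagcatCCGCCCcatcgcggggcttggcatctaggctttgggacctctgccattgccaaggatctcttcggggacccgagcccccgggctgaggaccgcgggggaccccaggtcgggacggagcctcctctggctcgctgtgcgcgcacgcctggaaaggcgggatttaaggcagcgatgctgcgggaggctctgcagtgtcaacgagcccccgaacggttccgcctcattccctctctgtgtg
SERINC3 promoter, chr20:44522021-44522320: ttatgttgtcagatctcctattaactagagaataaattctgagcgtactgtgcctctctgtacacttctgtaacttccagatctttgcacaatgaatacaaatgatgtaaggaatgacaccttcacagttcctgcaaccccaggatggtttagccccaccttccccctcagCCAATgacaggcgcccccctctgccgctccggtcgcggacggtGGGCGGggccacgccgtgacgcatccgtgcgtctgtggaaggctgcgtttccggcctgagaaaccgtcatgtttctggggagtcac

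The ZNF385B promoter had 22 CpG dinucleotides and a GC content of 62.3%, and the SERINC3 promoter had 16 and 54.0%. The acetylated AFF3 promoter had 8 CpGs and 52.7%, and the unacetylated one had 5 and 54.7%. Across 35116 RefSeq promoters of this length the medians were 14 CpGs and 58.7%, so ZNF385B and SERINC3 lay above the median CpG number and both AFF3 starts below it. The GC box GGGCGG occurred once in each of the 3 acetylated promoters and was found in 45.0% of all promoters. The CCAAT box (CCAAT) occurred once in ZNF385B and once in SERINC3, against 34.6% of all promoters. None of the 4 sequences held TATAAA (11.5% of all promoters), the forkhead core TGTTTAC (3.42%), the androgen response half-site AGAACA (14.8%) or the E-box CACGTG (7.26%). These are matches of letters in windows of 300 bases and not mapped binding sites.

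ZNF385B had the largest promoter fall of the 3 genes. Its H3K27ac fold was 36.6 in C4-2B and 3.45 in C4-2BER, a log2 ratio of −3.41. Its H3K18ac fold was 14.4 and 4.57, a log2 ratio of −1.66. In both marks this was the lowest ratio among the 14241 genes. AFF3 had an H3K27ac fold of 24.96 in C4-2B and 3.24 in C4-2BER (log2 ratio −2.95), the fifth lowest of those genes. Its H3K18ac fold was 10.8 and 4.03 (log2 ratio −1.41). SERINC3 had an H3K27ac fold of 32.7 and 11.8 (log2 ratio −1.47), which ranked 122 from the lowest. Its H3K18ac fold was 12.5 and 4.33 (log2 ratio −1.53), which ranked 4. SERINC3 thus kept a strong H3K27ac promoter peak in C4-2BER, above 89.3% of the peaks of its list. The AFF3 and ZNF385B peaks stood above 95.8% and 99.6% of the C4-2B list, and above 48.5% and 52.4% of the C4-2BER list. The lists differ in length and their depth is unknown, so these ranks describe each list alone. All 3 genes were called decreased in both marks because they were chosen for it, where 10.8% of 15346 promoters were called decreased for H3K27ac and 5.9% of 17828 for H3K18ac. Over all promoters with a peak in both lines, the median log2 H3K27ac ratio was −0.50 and the median log2 H3K18ac ratio −0.33. Rescaling the lists by a robust line over shared regions left AFF3 and ZNF385B called in both marks, and gave SERINC3 an H3K27ac log2 ratio of −0.997, just short of the call.

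**Figure D1:**
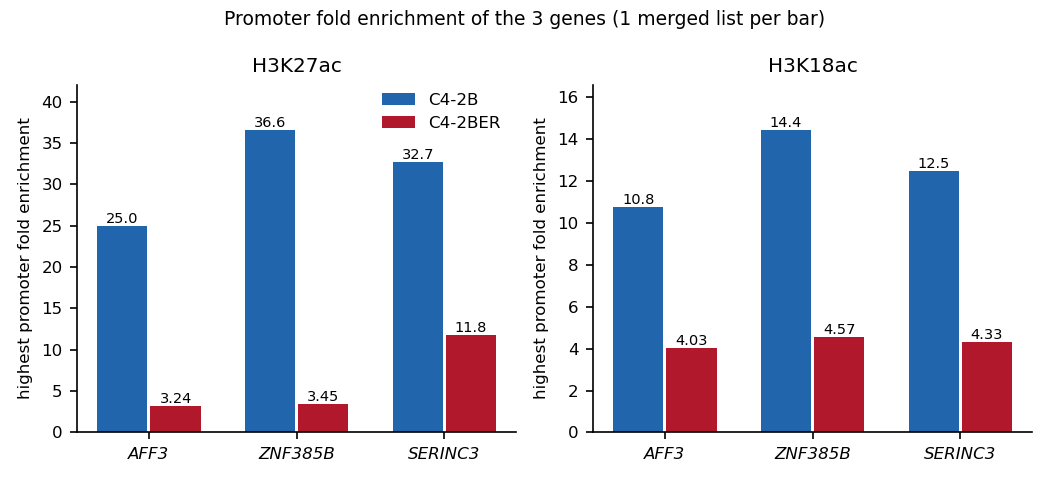
Highest fold enrichment (y axis, linear from 0) in the promoter windows of the 3 genes in C4-2B (blue) and C4-2BER (red), with 1 bar per merged peak list and no replicate error. The C4-2BER H3K27ac bars of AFF3 and ZNF385B are near 3, while that of SERINC3 is 11.8.

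Next in the same order were BMPR1B, a bone morphogenetic protein receptor, with log2 ratios of −2.66 and −1.37, and THAP10, a THAP domain protein, with −1.35 and −1.54. The limit between AFF3 and BMPR1B is therefore a difference of −1.41 against −1.37 in H3K18ac. Over the 4 lists, the genes nearest to AFF3 in log2 fold were RND3, an atypical small GTPase, at a distance of 0.348, KCNMA1, a calcium-activated potassium channel subunit, at 0.473, and ZNF385B itself at 0.726. Nearest to ZNF385B were KCNMA1 at 0.335, BMPR1B at 0.647 and RND3 at 0.672. Nearest to SERINC3 were RNMT, the mRNA cap methyltransferase, and FAM210A, which share a promoter peak and a distance of 0.346, and CHCHD1, a mitochondrial ribosomal protein, at 0.362. AFF3 was not among the 3 genes nearest to ZNF385B. The distances use the same folds by which the 3 genes were chosen, and describe no more than those folds.

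The width of the promoter peaks went in different directions at the 3 genes. The AFF3 H3K27ac promoter peak was 4256 bp wide in C4-2B and 861 bp in C4-2BER, and its H3K18ac peak went from 5074 to 3138 bp. The ZNF385B peaks went from 2027 to 1394 bp and from 1887 to 1568 bp. At these genes both fold and width were lower in C4-2BER. So were they for H3K27ac at the genes nearest to them in fold, with widths of 6158 and 1128 bp at KCNMA1, 3383 and 803 bp at BMPR1B, and 2490 and 1773 bp at RND3. The H3K18ac peaks were narrower in C4-2BER at KCNMA1 and BMPR1B, and wider at RND3, at 4114 against 2380 bp. The SERINC3 peaks instead were wider in C4-2BER, at 2072 against 1004 bp for H3K27ac and 4294 against 834 bp for H3K18ac. In C4-2B, H3K18ac at SERINC3 was called as separate peaks, one of 834 bp and fold 12.5 at the start site and one of 817 bp and fold 3.32 in intron 1. In C4-2BER a single peak of 4294 bp and fold 4.33 covered both and the gap between them. The product of fold and width of the promoter peak, an alternative chosen after seeing the data, gave SERINC3 log2 ratios of −0.42 (H3K27ac) and 0.84 (H3K18ac), with medians over all genes of −0.28 and −0.30. For AFF3 it gave −5.25 and −2.11, and for ZNF385B −3.95 and −1.93. Summed over all peaks in the windows of a gene, including those at internal start sites, the product gave −0.27 and 0.59 for SERINC3, −5.33 and −2.33 for AFF3, and −3.95 and −1.65 for ZNF385B. With both products SERINC3 was no longer called decreased, and its H3K18ac ratio had the opposite sign. With the mean fold weighted by overlap with the windows, its H3K18ac log2 ratio was −0.71, also short of the call, and its H3K27ac log2 ratio was −2.36, larger than with the highest fold. Wider promoter peaks in C4-2BER were common, with 76.6% of 14304 genes for H3K27ac and 59.6% of 16702 for H3K18ac.

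**Figure D2:**
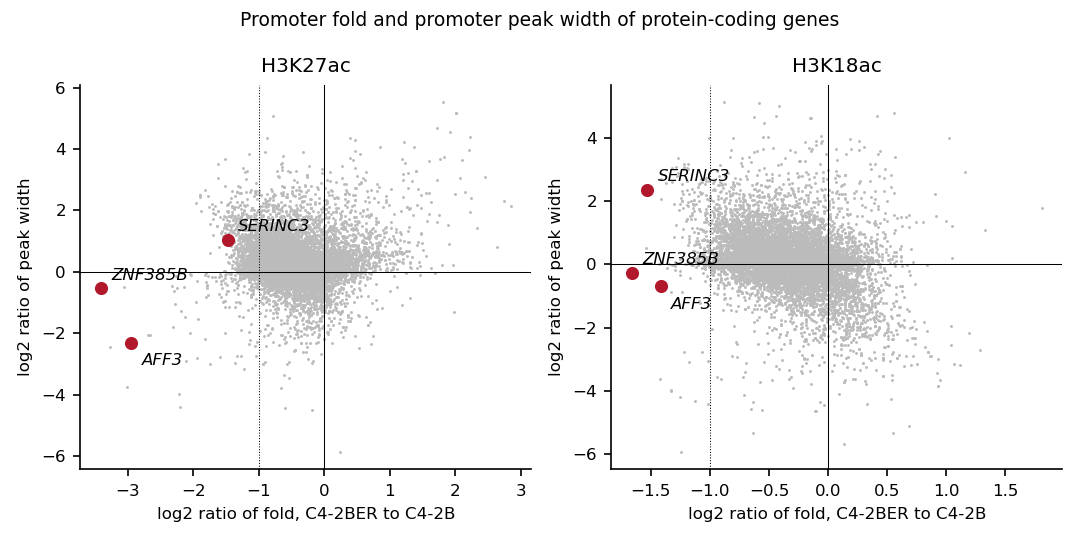
Log2 ratio of promoter fold (x axis) against log2 ratio of promoter peak width (y axis), C4-2BER to C4-2B, for 14241 protein-coding genes (grey) and the 3 genes (red), with the call limit of −1 as a dotted line. AFF3 and ZNF385B lie below 0 on the width axis and SERINC3 lies above it in both marks.

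AFF3 (ENSG00000144218.21) spans chr2:99545419-100192428 on the minus strand, 647.01 kb, with 24 distinct annotated start sites and 25 exons in its canonical transcript. The promoter signal did not sit at the canonical start, chr2:100142590. The 6 start sites clustered there and the farthest upstream start at 100192428 had no peak in any of the 4 lists. The windows of all 12 start sites between 100104525 and 100106128, in introns 2 and 3 of the canonical transcript, shared the C4-2B peaks and the C4-2BER H3K18ac peak described above. The C4-2BER H3K27ac peak of 3.24 lay in the windows of 10 of them, and the windows of the starts at 100106047 and 100106128 had none. A cluster of 3 start sites at 100006775 to 100007951 had an H3K27ac fold of 4.30 in C4-2B and no peak in C4-2BER, with H3K18ac at 4.40 and 2.304. The 2 start sites near 99593770 had only H3K18ac, 2.23 in C4-2B and none in C4-2BER. The peaks at the 12 start sites also lie over the promoter window of a long noncoding RNA gene annotated on the opposite strand (ENSG00000230393). The lists cannot tell the start sites of both genes apart. So the values of AFF3 come from its internal promoter, and the 12 start sites there repeat the peaks by which AFF3 was chosen. Of the other start sites, only the clusters at 100006775 to 100007951 and near 99593770 had a peak. Both had a lower value or none in C4-2BER.

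Over the AFF3 body and its flanks, C4-2B had 52 H3K27ac peaks covering 70.7 kb and C4-2BER had 15 covering 26.9 kb. For H3K18ac the numbers were 132 peaks and 156.5 kb against 66 peaks and 91.2 kb. Of 51 distal H3K27ac regions, outside all annotated promoter windows, 40 (78.4%, 95% Wilson interval 65.4 to 87.5) were called decreased and 3 increased. In the genome, 25.2% of distal H3K27ac regions were called decreased and 36.9% increased. Of 138 distal H3K18ac regions at AFF3, 84 (60.9%, 52.5 to 68.6) were called decreased and 18 increased, where the genome had 24.7% and 29.2%. The intervals cover counting error only, and neighbouring regions of 1 locus are not independent. The regions with a lower value lay mostly inside the gene. In the gene body 36 of 41 distal H3K27ac regions were called decreased, and 35 of these had no C4-2BER peak. In the flanks the count was 4 of 10, and 5 of the 10 had a peak in both lines.

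The strongest distal H3K27ac region of AFF3 called decreased lay in intron 4 at chr2:100031950-100032675, with a fold of 15.5 in C4-2B and no peak in C4-2BER. H3K18ac at this site went from 8.48 to 3.37. Broad regions, singled out after their values were seen, stood on either side of it. In intron 4, chr2:100054147-100060316 went from 10.5 to 5.15, and its width from 6170 bp in C4-2B to 506 bp in C4-2BER. Also in intron 4, chr2:100061703-100069285 had 6.79 in C4-2B and no peak in C4-2BER. In intron 7, chr2:99995448-100002723, a region of 7276 bp, had 7.29 in C4-2B and no H3K27ac peak in C4-2BER, while H3K18ac there went from 5.78 to 2.76. H3K18ac thus remained detectable in C4-2BER at sites where the H3K27ac peak was missing. Of the 39 distal regions with an H3K27ac peak in C4-2B alone, 18 had an H3K18ac peak in both lines, 18 in C4-2B alone, 1 in C4-2BER alone and 2 in neither. The share with H3K18ac in both lines was 46.2% at AFF3 and 62.8% over 14935 such regions of the genome.

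One strong intronic region did not follow. In intron 10, chr2:99727423-99728281 had an H3K27ac fold of 10.7 in both lines, and H3K18ac of 5.73 and 6.31. This region was singled out after its values were seen. It is about 415 kb downstream of the canonical start on the plot of the locus. Some regions in the flanks, singled out in the same way, differed by less than 2-fold. Upstream of the gene, chr2:100196902-100199140 had 4.60 and 5.35 and chr2:100289707-100292458 had 4.26 and 5.12. Downstream, chr2:99471875-99476978 went from 12.8 to 8.70, below the limit for a call. The strongest increased regions were weak, with an H3K27ac peak of 2.83 at chr2:99458853-99459159 and an H3K18ac peak of 2.85 in intron 18 at chr2:99570751-99570997, both in C4-2BER alone.

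**Figure D3:**
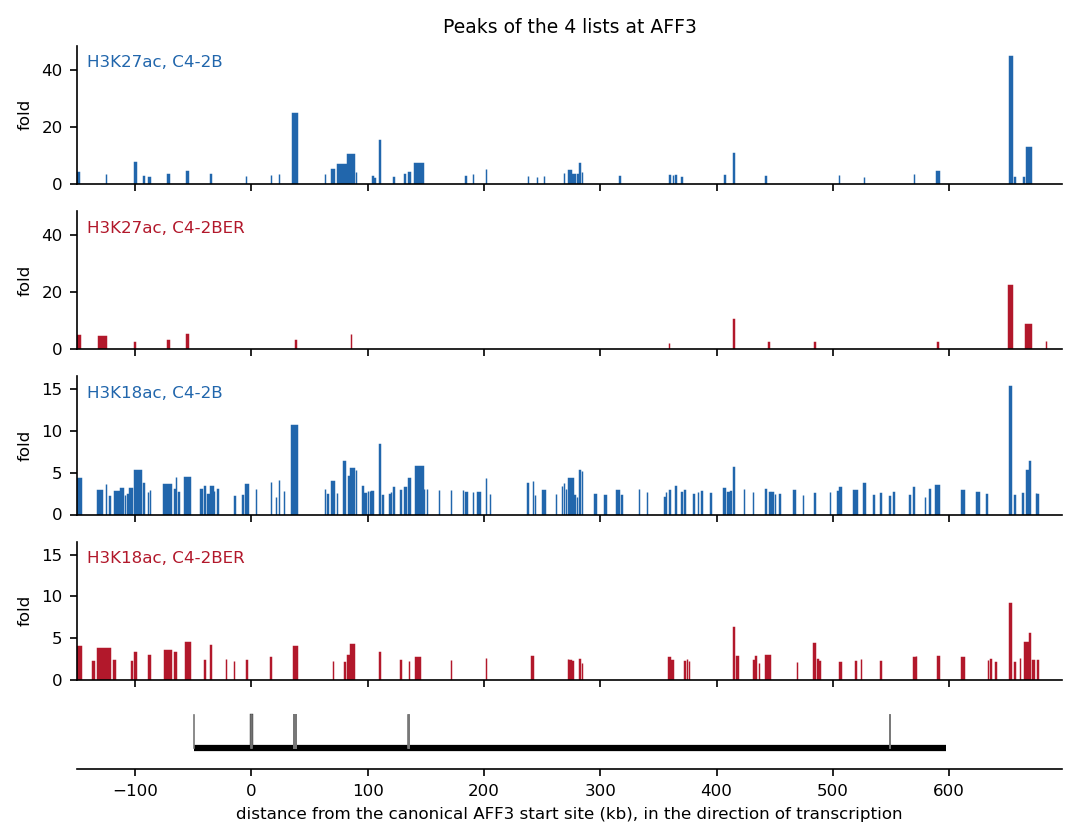
Peaks at AFF3 by distance from its canonical start site (x axis, kb) and fold enrichment (y axis), each peak drawn at its own width, for H3K27ac and H3K18ac in C4-2B (blue) and C4-2BER (red). The bottom line is the gene with its start sites. The 15 C4-2BER H3K27ac peaks leave most of the gene body empty, the intron 10 peak stays at 10.7, and the tall peak at the right end is REV1.

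The peak of the neighbouring gene REV1, a DNA polymerase of translesion synthesis and the only protein-coding neighbour with a start site within 100 kb of AFF3, was the tallest of the locus. Its H3K27ac fold went from 44.9 to 22.4 (log2 ratio −1.002), at the limit of a decreased call, and its H3K18ac fold from 15.3 to 9.24 (log2 ratio −0.73). The promoter of the long noncoding RNA LINC01104, upstream of AFF3, had an H3K27ac fold of 7.56 in C4-2B and 2.42 in C4-2BER. H3K18ac there was 5.30 and 3.39, short of a call. Noncoding neighbours did not share a direction. At the SERINC3 locus, a LINC01620 promoter region went from 3.57 to 6.62 in H3K27ac and from 3.28 to 5.21 in H3K18ac, both uncalled. Another LINC01620 region had H3K18ac of 2.49 in C4-2B alone.

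ZNF385B (ENSG00000144331.20) spans chr2:179441982-179861612 on the minus strand, 419.631 kb, with 13 distinct start sites and 10 exons in its canonical transcript. Here the acetylated start was the canonical one, chr2:179861612, with C4-2B peaks at its first exon. The 12 other start sites had no H3K27ac peak in either line. Weak H3K18ac peaks stood at 2 of the internal clusters, with 2.96 and 2.86 near 179585905 and with 2.16 in C4-2BER alone at 179536503. No other protein-coding gene has a start site within 100 kb.

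Over the locus C4-2B had 15 H3K27ac peaks covering 14.7 kb and C4-2BER had 8 covering 5.40 kb. Of 14 distal H3K27ac regions, 9 (64.3%, 38.8 to 83.7) were called decreased and 0 increased, where the genome had 25.2% and 36.9%. The 9 included 7 with no C4-2BER peak, of folds between 2.37 and 4.00. The strongest was upstream of the gene at chr2:179938595-179940076, with a fold of 13.5 in C4-2B and 4.83 in C4-2BER (log2 ratio −1.49) and H3K18ac of 7.35 and 4.13. In intron 1, chr2:179813973-179814526, singled out after its values were seen, went from 7.54 to 2.94 in H3K27ac and from 6.32 to 4.54 in H3K18ac. Among peaks with a fold of at least 4, where weak peaks of either line drop out, 2 of 7 distal regions were called decreased and 3 increased. The genome shares were not recomputed at this limit, so these counts have no background beside them. With the promoter, the regions upstream and in intron 1 were the 3 shared sites called decreased, all in the 5′ part of the locus.

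Some sites in the 3′ part of ZNF385B had higher folds in C4-2BER, while others there had an H3K27ac peak in C4-2B alone. Of the latter, chr2:179570052-179570382 (4.00), chr2:179629850-179630108 (3.38) and chr2:179683051-179683322 (2.96) lay in intron 3. The last, chr2:179431679-179432081 (2.67), lay downstream of the gene. In intron 3, chr2:179574706-179576215 had an H3K27ac fold of 7.68 in C4-2B and 12.2 in C4-2BER, and H3K18ac of 3.55 and 5.68. The H3K27ac peak there was narrower in C4-2BER, at 692 against 1470 bp, and H3K18ac wider, at 1352 against 434 bp. The neighbouring chr2:179571417-179573434 went from 3.27 to 4.43 and in H3K18ac from 3.28 to 5.42. Its H3K27ac width went from 2018 to 506 bp and its H3K18ac width from 392 to 599 bp. At exon 7, chr2:179446471-179446883 went from 3.40 to 6.13, and there H3K18ac had a peak of 3.43 in C4-2BER alone, the strongest increased distal H3K18ac region of the locus. At the last exon, chr2:179442960-179443552 was lower in C4-2BER, at 4.15 against 5.99. Where both lines had an H3K27ac peak, the differences of these sites were below 2-fold. All these sites were singled out after their values were seen. In C4-2BER the intron 3 region at chr2:179574706-179576215 had the highest H3K27ac fold of the locus, above the promoter at 3.45. In C4-2B the promoter at 36.6 was the highest. For H3K18ac the locus had 37 peaks in C4-2B and 32 in C4-2BER, and the covered length was larger in C4-2BER, at 23.3 against 18.1 kb. Of 43 distal H3K18ac regions, 14 (32.6%, 20.5 to 47.5) were called decreased and 8 increased. The genome had 24.7% decreased and 29.2% increased. The interval is wide and holds the 24.7%, so it cannot show whether the decreased share differs from the background. The strongest of the 14 lay in intron 1 at chr2:179851102-179852222, 3.80 in C4-2B alone.

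**Figure D4:**
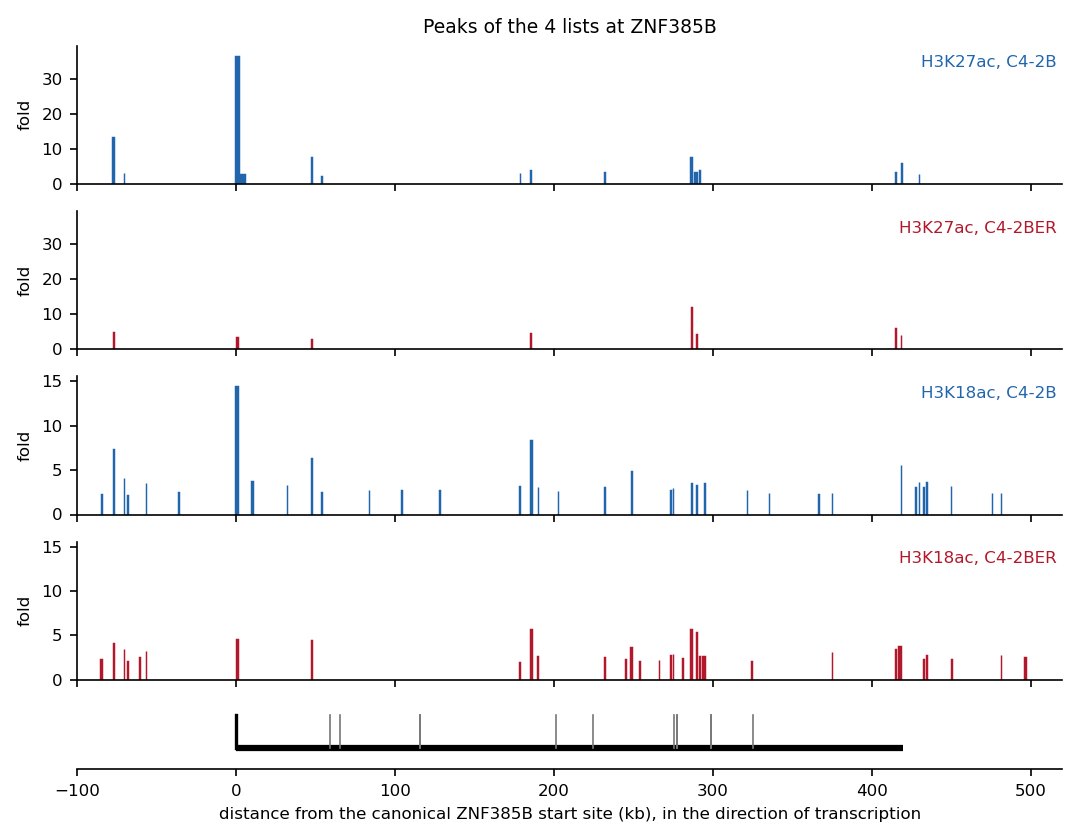
Peaks at ZNF385B by distance from its canonical start site (x axis, kb) and fold enrichment (y axis), drawn as for AFF3. The promoter peak at 0 kb goes from 36.6 to 3.45 in H3K27ac, and the intron 3 peak near 286 kb goes from 7.68 to 12.2.

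Sequence of the ZNF385B intron 3 region is shown because it had the highest C4-2BER H3K27ac fold of that locus. The 200 bases at the middle of the stretch under the H3K27ac peaks of both lines are given on the plus strand of GRCh38, where capitals would mark bases in 13-base words that occur at least 20000 times in the genome on either strand, and none are marked.
ZNF385B intron 3, chr2:179574972-179575171: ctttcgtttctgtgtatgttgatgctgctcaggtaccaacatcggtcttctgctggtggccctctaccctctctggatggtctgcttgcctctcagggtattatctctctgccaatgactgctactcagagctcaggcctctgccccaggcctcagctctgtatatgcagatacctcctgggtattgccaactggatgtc

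Such high-copy words, many of which come from interspersed repeats, covered 0% of this sequence, against 11.9% of the genome. Over whole regions, they covered 2.65% in ZNF385B intron 3 and 17.5% upstream of ZNF385B, where H3K27ac was lower in C4-2BER. The AFF3 intron 4 region without a C4-2BER peak was covered to 38.4%, and the AFF3 intron 10 region of equal fold to 33.1%. Over the whole of the 39 distal AFF3 regions with an H3K27ac peak in C4-2B alone, the median share was 9.48%, where 14935 such regions of the genome had 3.83%. Of those 39, 14 (35.9%) had a share of at least 25%, near the 37.8% of the genome. Without all distal regions of that share, an alternative chosen after seeing the data, 26 of 34 H3K27ac regions at AFF3 (76.5%) were called decreased. The genome shares were not recomputed without such regions, so counts under this alternative have no background beside them. At ZNF385B the count became 5 of 9 for H3K27ac and 4 of 20 for H3K18ac, with 4 increased. Of its 14 distal regions with an H3K18ac peak in C4-2B alone, 10 (71.4%) had a share of at least 25%, where 49.1% of 50551 such regions of the genome did. In the H3K27ac promoter regions of AFF3, ZNF385B and SERINC3 the shares were 0.916%, 0% and 1.30%.

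SERINC3 (ENSG00000132824.14) spans chr20:44496221-44522085 on the minus strand, 25.865 kb, with 4 distinct start sites and 10 exons in its canonical transcript. Its 3 start sites at 44522054 to 44522085 shared the promoter peak. The internal start at 44504891, in exon 7, had an H3K27ac peak of 2.40 in C4-2BER alone and an H3K18ac peak of 2.37 in C4-2B alone, so the marks went in opposite directions there. Of the regions just inside the gene, singled out after their values were seen, the H3K27ac region in intron 1 at chr20:44517932-44518939 had 3.85 in C4-2B and 4.95 in C4-2BER, and chr20:44516158-44516844 had a peak of 2.33 in C4-2BER alone.

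In contrast to AFF3 and ZNF385B, the SERINC3 locus carried more H3K27ac-covered sequence in C4-2BER. More covered sequence was also the direction of the whole lists, at 144.8 Mb against 117.1 Mb for H3K27ac and 320.7 Mb against 293.2 Mb for H3K18ac. For H3K18ac the covered length was larger in C4-2BER at SERINC3, as at ZNF385B, and smaller at AFF3. H3K27ac had 10 peaks over 7.57 kb in C4-2B and 14 over 17.7 kb in C4-2BER, and H3K18ac had 35 peaks in each over 43.4 and 59.3 kb. Of 10 distal H3K27ac regions, 2 (20%, 5.67 to 51.0) were called decreased and 6 increased. Of 31 distal H3K18ac regions, 5 (16.1%, 7.09 to 32.6) were called decreased and 11 increased. The shares of decreased regions in the genome, given above, lay inside both intervals, which are too wide to show whether the shares differ. The increased shares were 60% for H3K27ac, where the genome had 36.9%, and 35.5% for H3K18ac, near the 29.2% of the genome. Of the 11 H3K18ac regions with a peak in C4-2BER alone, 9 (81.8%) had at least 25% of their bases in high-copy words, where 50.5% of such regions of the genome did. Without regions of that share, 5 of 15 H3K18ac regions were called decreased and 2 increased, the reverse order of the 5 and 11 above. The genome shares were taken over all distal regions, so these counts have no background beside them. The strongest increased region lay upstream of the gene at chr20:44572772-44573340, with H3K27ac of 3.597 and H3K18ac of 2.96 in C4-2BER alone. The strongest decreased ones lay downstream, 2.79 for H3K27ac at chr20:44443682-44443982 and 2.96 for H3K18ac at chr20:44417829-44420261, both in C4-2B alone. All of these were weak beside the promoter peak.

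**Figure D5:**
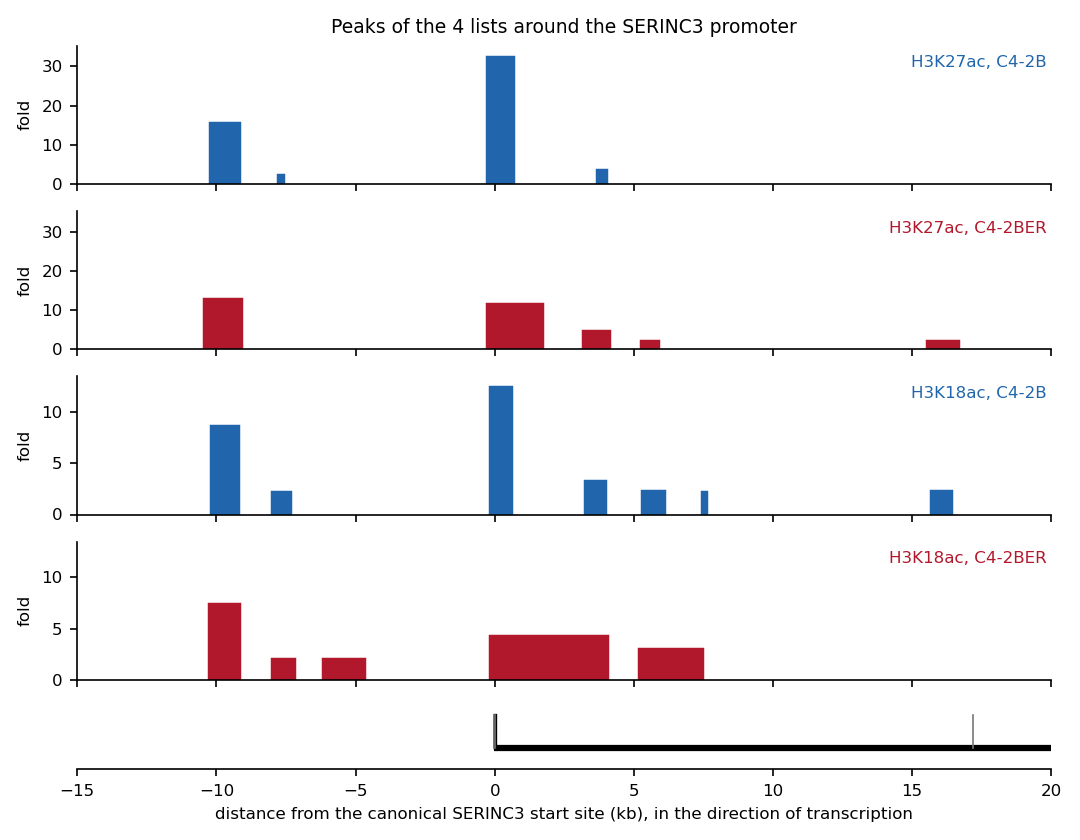
Peaks from 15 kb upstream to 20 kb downstream of the canonical SERINC3 start site (x axis, kb) by fold enrichment (y axis), drawn as for AFF3. In C4-2BER the promoter peaks have lower folds and are wider, and the H3K18ac peak of 4294 bp spans the gap between separate C4-2B peaks.

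The 4 protein-coding neighbours with a start site within 100 kb of SERINC3 were not called decreased in either mark. Of all promoters with a peak, 10.8% were called decreased for H3K27ac and 5.9% for H3K18ac. No call among 4 genes is near this background. TTPAL, a protein related to the tocopherol transfer protein, had H3K27ac of 22.9 and 12.3 (log2 ratio −0.90). PKIG, an inhibitor of protein kinase A, had 15.8 and 13.0 (log2 ratio −0.29), and ADA, adenosine deaminase, 15.5 and 10.5 (log2 ratio −0.56). HNF4A, a nuclear receptor of liver and gut, had no H3K27ac promoter peak and could not be called in that mark. Its H3K18ac fold was 3.12 and 2.18. The H3K18ac log2 ratios of the 4 genes ran from −0.73 at TTPAL to −0.21 at PKIG, while SERINC3 had −1.53. SERINC3 was chosen for its calls, and its H3K27ac call was lost on rescaling and with the products of fold and width. Its H3K18ac call was kept on rescaling (log2 ratio −1.29) and lost with the products. The neighbours were not rescaled, so the difference of SERINC3 from them is given for the highest fold without rescaling.

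Of the 10 family relatives of the 3 genes, 8 had an H3K27ac promoter peak and 0 of these were called decreased, against 10.8% of all promoters with one. For H3K18ac all 10 had a peak and 2, AFF2 and ZNF385D, were called decreased, against 5.9%. Of the other AFF family genes, AFF1 had log2 ratios of −0.71 and −0.66, AFF4 had −0.87 and −0.21, and AFF2 had no H3K27ac promoter peak and an H3K18ac peak of 3.05 in C4-2B alone, the only call among the 3. Of the ZNF385 genes, ZNF385A had 0.08 and 0.07. ZNF385C was called increased in H3K27ac through a peak of 2.37 in C4-2BER alone, and ZNF385D was called decreased in H3K18ac through a peak of 3.54 in C4-2B alone. Of SERINC1, SERINC2, SERINC4 and SERINC5, 0 of 4 were called in either mark, with log2 ratios between −0.73 and 0.03. In the super elongation complex, which AFF proteins hold together, 2 of 10 genes were called decreased for H3K27ac and 0 of 10 for H3K18ac, counts near the 10.8% and 5.9% of all promoters. CDK9, the kinase of the complex, had an H3K27ac fold of 41.3 and 12.8 (log2 ratio −1.69) with a peak that widened from 2526 to 10546 bp, and a log2 ratio of 0.28 for the product of fold and width summed over its peaks. MLLT3, a YEATS domain reader protein, had 14.8 and 6.93 (log2 ratio −1.09). The median log2 H3K27ac ratio of the 10 genes was −0.75, where all genes had −0.50.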

How the data were processed

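The deposited files are 4 macs2 broad peak lists, 1 per mark and cell line. The authors mapped the reads with bowtie2 (GRCh38), filtered out duplicates, poor alignments and blacklisted loci, pooled the replicates and called peaks. The lists give, as the authors deposited them, a fold enrichment (a ratio to local background, not scaled between lists) and −log10 p-values and q-values. A site without a peak may still carry the mark. Members and gene lists were chosen with earlier results of these data known.

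A promoter ran from 2000 bp before to 500 bp after every start site in GENCODE release 44, and their value was the highest fold there. Overlapping peaks of both lines were merged into regions with length-weighted mean folds, and distal regions overlapped no promoter of a protein-coding or lncRNA gene. Introns are those of the canonical transcript. Named genes were the 3 genes, neighbours within 100 kb, family and complex members, luminal and neuroendocrine markers, the 2 genes next in order and the 3 nearest in log2 fold over 4 lists. Named distal regions were the strongest decreased and increased per locus and mark, and all others named were singled out after their values were seen. Promoter sequences are from RefSeq (GRCh38.p14), other sequences from GRCh38, against which peak ends were checked. All 3 genes matched RefSeq. Words of 13 bases were counted over the genome. Region merging, calls and rescaling were tested on simulated data. The scripts ran in Python 3.11.15 with statsmodels 0.14.6, scipy 1.17.1, pandas 2.3.3, numpy 2.4.6 and matplotlib 3.10.9. Results for some marker genes and a sequence are not reported here.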

Additional observations from a re-analysis of the deposited data

How the results depend on the processing

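No paired analysis was possible because peaks were called on merged replicates, and no replicate could be left out. Of 50 recomputed promoter ratios 44 kept their direction and call, of 48 recomputed shares of decreased distal regions 35 stayed within the Wilson interval of the reported share, and of 18 recomputed ratios of covered length 11 kept their call. The cause was not tested for the others. Among the promoter ratios, other windows, the fold and q-value limits and the canonical start returned the main ratio exactly wherever they gave one. These settings picked the same highest peak, so their ratios say little about robustness. Only rescaling, the overlap-weighted mean and the products of fold and width gave other values. The SERINC3 log2 promoter ratio became −0.997 for H3K27ac after rescaling by a robust line over shared regions and −0.71 for H3K18ac with the overlap-weighted mean fold, which gave −2.36 for H3K27ac. The product of fold and width, chosen after seeing the data, gave −0.42 and, with the opposite sign, 0.84 for the promoter peak alone, and −0.27 and 0.59 summed over all peaks in the windows. The canonical AFF3 start has no peak, and AFF3 and ZNF385B have no C4-2BER H3K27ac promoter peak with a fold of at least 4, so these settings gave no ratio.

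For the share of decreased distal H3K27ac regions, the gene body alone gave 87.8% at AFF3. At ZNF385B peaks with a fold of at least 4 gave 28.6% (2 decreased and 3 increased of 7 regions), and a minimum −log10 q-value of 5 gave 37.5% of 8. At SERINC3 the share was 0% in both marks with a flank of 50 kb, in the gene body, and with the fold or q-value limit. In that order these rest on 5, 2, 2 and 3 H3K27ac regions and on 15, 1, 1 and 4 H3K18ac regions. Without regions rich in high-copy words, chosen after seeing the data, the H3K18ac share was 20% at ZNF385B (4 decreased and 4 increased of 20). At SERINC3 it was 33.3% (5 decreased and 2 increased of 15, in place of 5 and 11). Genome shares were taken over all distal regions and not recomputed under these settings, so the recomputed shares have no background beside them.

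The log2 ratio of covered length for H3K27ac at AFF3 was −1.40, and −3.50 in the gene body (53.9 kb in C4-2B and 4.77 kb in C4-2BER). It was −1.44 for H3K27ac at ZNF385B, and −0.78 and −0.90 with the fold and q-value limits. For H3K27ac at SERINC3 it was 1.22, and 0.86 with the q-value limit. For H3K18ac at AFF3 it was −0.78, then −1.14 with the fold limit and −1.21 in the gene body. For H3K18ac at SERINC3 it was 0.45, then 2.02 and 1.92 with the fold and q-value limits. Depth is unknown, so peaks near the detection limit, such as most distal peaks at these loci, can be missed in either line.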
